A study of Mus musculus with 10 samples.

Results

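Adipokines are proteins that fat cells and the other cells of fat release into the blood and the surrounding tissue. Their transcripts were examined in abdominal aortas of mice, which in these samples came with much perivascular fat. The list held 10 genes, Adipoq, Lep, Retn, Cfd, Rbp4, Nampt, Rarres2, Apln, Sfrp5 and Itln1, and every probe set annotated to exactly 1 of these symbols was taken. A probe set is a group of short probes on an array that together read 1 transcript. The rule found 14 probe sets of 9 genes, of 18193 genes and 45037 probe sets in all with controls left out, and the gene Cfd was not analysed here. The rule itself uses gene names and no signal values.

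Total RNA of the abdominal aorta was measured on GeneChip Mouse Genome 430 2.0 arrays in 4 WT mice and 6 KCASP1Tg mice, with 1 array per mouse. KCASP1Tg mice carry a transgene for human caspase-1 under the K14 promoter, which is active in keratinocytes of the skin, and they develop dermatitis without further treatment. WT mice were C57BL/6 littermates without the transgene. The methods give the transgenic mice as female, and mice of both groups were 16 weeks (4 months) old. The transgene is driven in skin and not in the aorta or the fat, and the labels give the tissue of both groups as dechorionated abdominal aorta. The methods give fewer mice than there are arrays, so all 10 arrays were used, and mice are numbered within their genotype.

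Adiponectin (Adipoq) acts through the receptors encoded by Adipor1 and Adipor2 and binds T-cadherin (Cdh13) on vessels, and it is known for dampening inflammation in the vessel wall. Leptin (Lep) reports the size of the fat stores and signals through Lepr, Jak2 and Stat3, and mouse resistin (Retn) is a product of fat cells that opposes insulin. Other proteins of the group are made by fat together with further cell types, as the retinol carrier RBP4 by liver, NAMPT by most cells, chemerin (Rarres2) by liver and skin, apelin (Apln) by endothelium, the Wnt antagonist SFRP5 by fat cells and some epithelia, and omentin (Itln1) by intestine and mesothelium.

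The signal is the brightness of a probe set on a linear scale after the scaling of each array to the same trimmed mean of 500. On each array 54.9% to 58.3% of all probe sets reached a signal of 100. The tissue held fat on every array: the mean log2 signal of 12 white adipocyte genes, among them the fatty acid carrier Fabp4 and the lipid droplet gene Cidec, was 12.96 to 13.51 in WT mice and 12.49 to 13.55 in KCASP1Tg mice. Brown fat transcripts were bright as well, with a mean over 9 brown adipocyte genes of 11.35 to 12.94 in WT mice and 10.53 to 12.47 in KCASP1Tg mice. Ucp1, 1 of these genes, had signals of 13546 to 38829 in WT mice and 4280 to 32055 in KCASP1Tg mice. The mean over 9 arterial smooth muscle genes was 12.02 to 12.32 in WT mice and 10.70 to 12.29 in KCASP1Tg mice, so the labelled tissue was present. Some arrays stood apart by transcripts of other tissues. The mean over 9 liver genes was 13.32 in WT 1 and 11.56 in WT 3 against 3.98 to 8.47 on the other 8 arrays. The mean over 8 neutrophil genes was 5.92 to 6.16 in WT mice and 8.65 to 11.75 in KCASP1Tg mice, with the highest value in KCASP1Tg 4, which also had the lowest white adipocyte mean. The mean over 4 lymph node genes was 11.61 in KCASP1Tg 4 against 4.39 to 7.97 on the other arrays. The mean over 7 heart muscle genes was 13.12 in WT 4, 12.19 in KCASP1Tg 1 and 11.39 in KCASP1Tg 2 against 5.28 to 7.71 elsewhere. That over 6 adrenal cortex genes was 10.62 in KCASP1Tg 2 and 8.88 in WT 3 against 4.51 to 7.22 elsewhere. In whole tissue, fewer cells of a type and less RNA per cell cannot be told apart.

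Promoter sequences of 3 members are shown because the 3 genes differed in how they compared between the genotypes. They are the 250 bases before the annotated start, from RefSeq on GRCm38.p6, where 8 of the 9 genes analysed had an entry. Adipoq lies at chr16:23146536-23157968 and its stretch at chr16:23146286-23146535 on the plus strand. Lep lies at chr6:29060221-29073876 and its stretch at chr6:29059971-29060220 on the plus strand. Rbp4 lies at chr19:38116620-38125321, has 2 annotated starts, and is shown for the downstream one at chr19:38124812-38125061 on the minus strand. Capitals mark the letters CCAAT or, on the other strand, ATTGG in Adipoq, the palindrome TTGCGCAA of C/EBP factors in Lep, and the TATA box letters TATAAA in Rbp4.
Adipoq: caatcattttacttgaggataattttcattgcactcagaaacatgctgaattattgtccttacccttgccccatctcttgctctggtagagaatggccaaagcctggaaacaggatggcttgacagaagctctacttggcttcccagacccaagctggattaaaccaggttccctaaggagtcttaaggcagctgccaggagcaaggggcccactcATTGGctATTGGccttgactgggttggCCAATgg
Lep: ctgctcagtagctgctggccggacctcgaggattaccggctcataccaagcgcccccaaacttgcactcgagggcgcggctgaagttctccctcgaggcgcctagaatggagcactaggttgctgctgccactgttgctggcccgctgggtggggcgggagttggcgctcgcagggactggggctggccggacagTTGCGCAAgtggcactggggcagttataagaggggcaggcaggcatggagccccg
Rbp4: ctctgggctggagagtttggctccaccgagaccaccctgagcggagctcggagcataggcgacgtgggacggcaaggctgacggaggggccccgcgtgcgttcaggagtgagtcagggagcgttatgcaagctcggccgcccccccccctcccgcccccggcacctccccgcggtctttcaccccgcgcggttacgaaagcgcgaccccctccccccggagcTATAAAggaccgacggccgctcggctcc
Adipoq held the CCAAT letters at 3 places within 34 bases of the start, and 33.85% of 32851 promoters of this length held them on either strand. Lep held the palindrome 55 bases before the start, which 0.16% of the promoters held. Rbp4 held TATAAA 28 bases before the downstream start, which 12.37% of the promoters held, and the stretch of its other start, at chr19:38125322-38125571, held the CCAAT letters 162 bases before that start and no TATAAA. The nuclear receptor letters AGGTCA were also searched on both strands, were found in Nampt 151 bases before the start, and stood in 14.02% of the promoters. None of the 4 motifs overlapped another in these 3 stretches. The GC content was 48.8%, 65.6% and 70.8% in the stretches of Adipoq, Lep and Rbp4, against a median of 52.4%. A match of letters is a description of the sequence and not of binding.

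The comparison asked whether the adipokine transcripts differed between KCASP1Tg and WT mice. No adipokine probe set passed the test. Rbp4 was lower on every KCASP1Tg array than on every WT array, the means of Lep and Nampt were higher in KCASP1Tg mice with overlapping groups, and for Adipoq, Retn and Rarres2 the means of the genotypes were at most 0.15 apart on the log2 scale. Of the 14 probe sets, 12 from 8 genes reached a signal of 100 on 4 or more arrays and were tested with limma, together with all other probe sets that met this limit. Of these 12, 0 were called at an adjusted p under 0.05, while 0.0686% of all 26242 probe sets were called higher in KCASP1Tg mice and 0% lower. Two-sided p without adjustment was under 0.05 in 2 of the 12, Rbp4 and 1 of 3 probe sets of Nampt, where 4.52% of all probe sets were higher and 3.42% lower at that limit. The difference was positive for 6 and negative for 6 of the 12 probe sets, and the smallest adjusted p of any of them in limma was 0.219. The groups did not overlap in 1 of the 12, lower in KCASP1Tg mice, where 0.949% of all probe sets tested were lower without overlap and 1.98% higher.

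**Figure D1:**
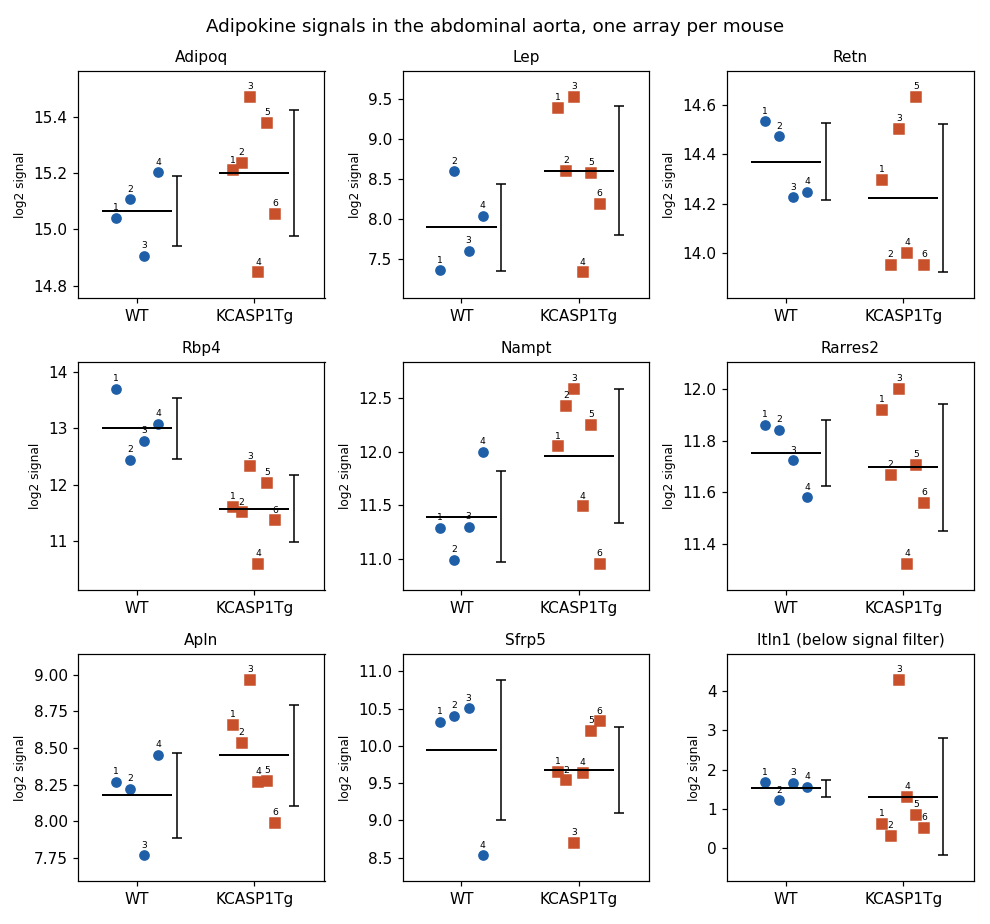
Log2 signal (vertical axis) of the probe set with the highest mean signal for each of 9 adipokine genes, with 1 point per mouse labelled by its number, WT as blue circles and KCASP1Tg as orange squares. Horizontal lines are group means and the bars beside them show 1 SD to each side. Rbp4 is the one panel in which the 4 WT points all lie above the 6 KCASP1Tg points.

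Adipoq signals were 33705, 35284, 30703 and 37705 on WT 1 to WT 4, and 29503 at the lowest, 38241 at the median and 45368 at the highest in KCASP1Tg mice. KCASP1Tg 4 was below and KCASP1Tg 1, 2, 3 and 5 were above all WT mice, so that the groups overlapped. The log2 difference of KCASP1Tg minus WT was 0.14 ± 0.13 (SE) with a 95% interval of -0.16 to 0.43 (limma adjusted p = 0.895).

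Lep was low in signal, with 164.2, 385.9, 193.8 and 263.6 on WT 1 to WT 4. In KCASP1Tg mice it had 161.6 at the lowest, 384.6 at the median and 734.2 at the highest. KCASP1Tg 1 and KCASP1Tg 3 were well above all WT mice, KCASP1Tg 2 was just above WT 2, and KCASP1Tg 4 was below all of them. The difference was 0.70 ± 0.41 with an interval of -0.21 to 1.62 (limma adjusted p = 0.743). It was 0.96 without KCASP1Tg 4 and 0.28 when WT 1 and WT 3 were left out, an alternative chosen after seeing the data.

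Retn signals were 23702, 22725, 19165 and 19459 on WT 1 to WT 4, and 15853 at the lowest, 18259 at the median and 25379 at the highest in KCASP1Tg mice. KCASP1Tg 2, 4 and 6 were below all WT mice while KCASP1Tg 5 was above them. The difference was -0.15 ± 0.16 with an interval of -0.51 to 0.22 (limma adjusted p = 0.914). Retnla, a relative of resistin known from macrophages and fat, was the 1 tested gene of the resistin family beside Retn, and its groups overlapped as well, with a difference of -0.12 (limma adjusted p = 0.961).

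Rbp4 encodes the carrier of retinol in the blood. Its signals were 13326, 5527, 7011 and 8621 on WT 1 to WT 4, and 1548 at the lowest, 3017 at the median and 5128 at the highest in KCASP1Tg mice. All 6 KCASP1Tg mice were below all 4 WT mice, and WT 2 and KCASP1Tg 3 were the nearest to each other. The difference was -1.42 ± 0.33 with an interval of -2.16 to -0.68, which is a signal 2.68-fold lower in KCASP1Tg mice. Adjusted over everything tested it missed the threshold (limma adjusted p = 0.219), and it ranked 178 by p among the 26242 probe sets. The two-sided exact Mann-Whitney p was 0.00952, the smallest that 4 against 6 mice can give.

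Liver transcripts moved with Rbp4. Of 9 liver genes, all measured, 8 were tested, 0 were called, and all 8 were lower in KCASP1Tg mice with an unadjusted p under 0.05 and a median log2 difference of -4.32, against a median of 0.00 over all genes tested. Albumin (Alb) had signals of 43054, 998.0, 25226 and 3695 on WT 1 to WT 4 and of 72.9 to 2366 in KCASP1Tg mice. Ttr, whose product travels with RBP4 in the blood and is made in liver, had 28504, 246.2, 14134 and 1179 on the WT arrays and 27.2 to 250.3 in KCASP1Tg mice (difference -5.51, limma adjusted p = 0.182). Some liver genes were near the floor of 1 in KCASP1Tg mice, as Fgb with a signal of 1.2 in KCASP1Tg 2. A signal that low does not tell whether liver RNA was present. The liver means of WT 2 and WT 4 were 6.57 and 8.47, and those of KCASP1Tg mice ran from 3.98 to 8.03.

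The Rbp4 difference was -1.18 when WT 1 and WT 3 were left out (limma adjusted p = 0.9998), an alternative chosen after seeing the data. Every adipokine gene tested had this same adjusted p in that fit, and WT 2 and WT 4 were still above all KCASP1Tg mice in Rbp4. With the liver mean as a covariate the Rbp4 difference was -0.82 (limma adjusted p = 0.99995), and with the white adipocyte mean as a covariate -1.44 (limma adjusted p = 0.0749). Across the 10 mice, Rbp4 followed the liver mean with a Pearson r of 0.81 (permutation p = 0.00354, adjusted p = 0.0230) and a Spearman rho of 0.82 (permutation p = 0.00574, adjusted p = 0.0373). The r was 0.65 without WT 1 and WT 3, the mice farthest from the median liver mean, and 0.37 within the 6 KCASP1Tg mice. The permutations shuffled mice of both genotypes together, and the group means of Rbp4 and of the liver genes were both lower in KCASP1Tg mice. The permutation p over the 10 mice therefore also carries the difference between the genotypes. The part of liver RNA in the Rbp4 difference was not tested.

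Nampt encodes the enzyme that makes nicotinamide mononucleotide, and its secreted form is known as visfatin. Its brightest probe set, 1417190_at, had signals of 2500, 2040, 2519 and 4090 on WT 1 to WT 4, and 1989 at the lowest, 4550 at the median and 6149 at the highest in KCASP1Tg mice. KCASP1Tg 1, 2, 3 and 5 were above all WT mice and KCASP1Tg 6 was below them. The difference was 0.56 ± 0.32 with an interval of -0.15 to 1.28 (limma adjusted p = 0.734). The other 2 probe sets pointed the same way, with 0.37 ± 0.20 for 1455320_at (limma adjusted p = 0.716) and 0.58 ± 0.23 for 1448607_at (limma adjusted p = 0.561). Over the 10 mice the 3 probe sets had a Pearson r of 0.92 to 0.98 with each other.

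Rarres2 was read by 2 bright probe sets whose suffix _s_at marks probes that match more than 1 transcript. The brighter one, 1428538_s_at, had signals of 3721, 3673, 3383 and 3064 on WT 1 to WT 4, and 2564 at the lowest, 3299 at the median and 4103 at the highest in KCASP1Tg mice. The groups overlapped widely, with a difference of -0.06 ± 0.14 (limma adjusted p = 0.979), and the other gave -0.10 ± 0.12 (limma adjusted p = 0.932). The third, 1425091_at, had signals of 68.5 to 151.5, was not tested, and had an r of only 0.20 and 0.22 with the others.

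Apln, the ligand of the apelin receptor, had signals of 308.5, 297.9, 217.7 and 350.4 on WT 1 to WT 4, and 253.9 at the lowest, 340.4 at the median and 499.9 at the highest in KCASP1Tg mice. KCASP1Tg 1, 2 and 3 were above all WT mice and the other KCASP1Tg mice were within their range. The difference was 0.27 ± 0.20 with an interval of -0.17 to 0.72 (limma adjusted p = 0.818). With the endothelial list mean as a covariate it was 0.27 (limma adjusted p = 0.746).

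Sfrp5 signals of the brighter probe set, 1436075_at, were 1280, 1358 and 1453 on WT 1 to WT 3 and 370.2 on WT 4. In KCASP1Tg mice they were 415.4 at the lowest, 800.6 at the median and 1287 at the highest. WT 4 was below every other mouse, and WT 2 and WT 3 were above every KCASP1Tg mouse. The difference was -0.27 ± 0.42 with an interval of -1.20 to 0.67 (limma adjusted p = 0.955), and with each mouse left out in turn it ran from -0.74 (without WT 4) to -0.07 (without KCASP1Tg 3). It was -0.14, -0.11 and -0.08 without WT 1, WT 2 and WT 3. The second probe set, 1423023_at, also had its lowest value in WT 4, at 230.5, and a difference of -0.02 ± 0.31 (limma adjusted p = 0.999).

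Itln1 had signals of 3.2, 2.3, 3.2 and 2.9 on WT 1 to WT 4 and of 1.2 to 19.5 in KCASP1Tg mice, which is under the limit for testing on every array. KCASP1Tg 3 had the 19.5 and all other mice were under 3.3. No direction was read from these signals.

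**Figure D2:**
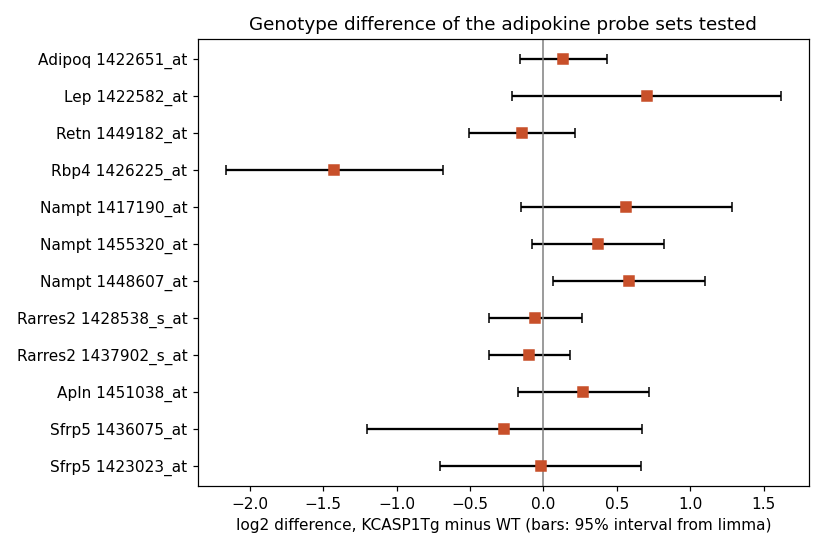
Log2 difference of KCASP1Tg minus WT (horizontal axis) for the 12 adipokine probe sets tested, with limma's 95% interval before adjustment over probe sets as bars. The intervals of Rbp4 (-2.16 to -0.68) and of the Nampt probe set 1448607_at (0.06 to 1.10) leave out 0, and the other 10 include it.

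The adipokines were then set beside the amount of fat transcripts, since KCASP1Tg 4 and KCASP1Tg 6 had the lowest white adipocyte means. None of the members is in the white adipocyte list. Of its 12 tested genes, 0 were called, and the mean differed by 0.02 between the genotypes. Correlations over the 10 mice were computed for 13 pairs of a member and a list, with permutation p adjusted over the 13.

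Adipoq followed the white adipocyte mean most closely, with an r of 0.88 (permutation p = 0.00072, adjusted p = 0.00936) and a rho of 0.87 (permutation p = 0.00231, adjusted p = 0.0300). It was 0.88 without KCASP1Tg 4 and KCASP1Tg 6, the mice farthest from the median of the white adipocyte mean, and 0.96 within KCASP1Tg mice. Nampt had an r of 0.78 (permutation p = 0.00921, adjusted p = 0.0399) and a rho of 0.76 (permutation p = 0.0150, adjusted p = 0.0493), with r at 0.91 without these 2 mice and 0.87 within KCASP1Tg mice. These 2 members passed in both measures.

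Apln had an r of 0.62 (permutation p = 0.0584, adjusted p = 0.152) and a rho of 0.76 (permutation p = 0.0152, adjusted p = 0.0493), and Lep an r of 0.63 (permutation p = 0.0536, adjusted p = 0.152) and a rho of 0.60 (permutation p = 0.0743, adjusted p = 0.138). Without KCASP1Tg 4 and KCASP1Tg 6 the r was 0.73 for Apln and 0.53 for Lep. For Retn, Rbp4 and Rarres2 the r of 0.47, 0.41 and 0.57 (permutation adjusted p = 0.266, 0.345 and 0.180) became -0.04, -0.37 and -0.15 without these 2 mice, so over the 10 mice it rested on them. Within the 6 KCASP1Tg mice, which include these 2, the r of Retn, Rbp4 and Rarres2 was 0.65, 0.90 and 0.82. Sfrp5 ran the other way with an r of -0.52 (permutation adjusted p = 0.230) and -0.80 without the 2 mice. The r of Itln1 was 0.26 with the white adipocyte mean and 0.16 with the mesothelium mean, that of Nampt with the neutrophil mean 0.38, and that of Apln with the endothelial mean -0.10 (permutation adjusted p = 0.563, 0.670, 0.367 and 0.761). For Nampt with the neutrophil mean the rho was 0.60 (permutation adjusted p = 0.138). Its r was 0.59 without KCASP1Tg 4 and WT 3, the mice farthest from the median neutrophil mean, and -0.21 within KCASP1Tg mice.

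**Figure D3:**
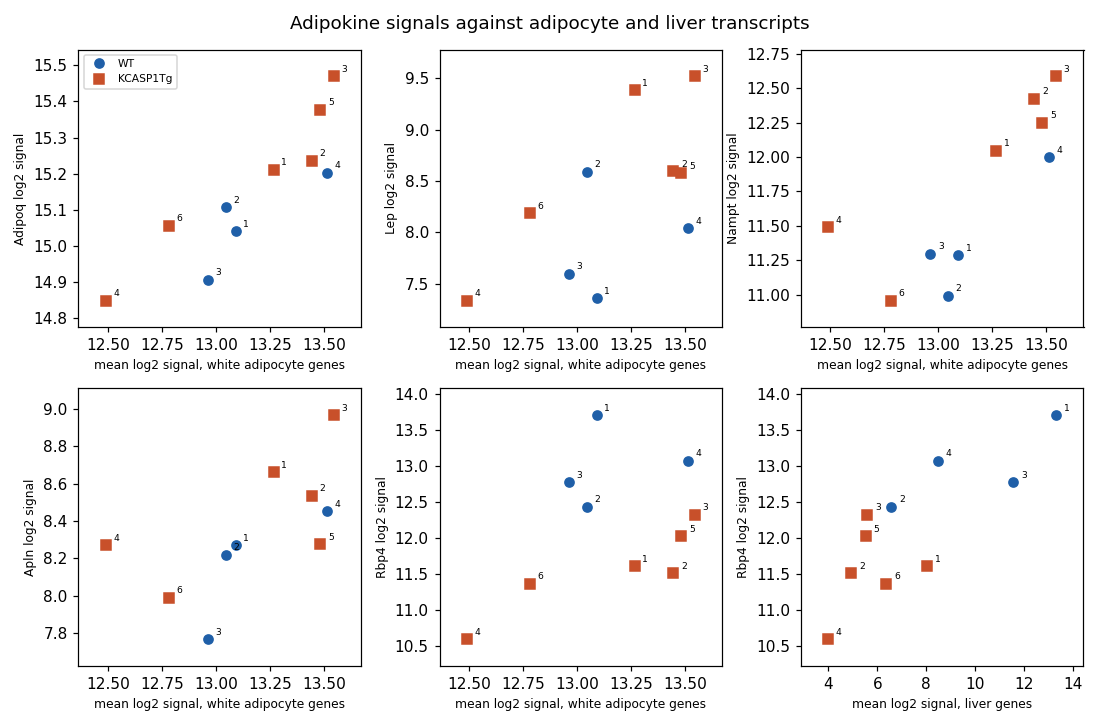
Log2 signal of 5 adipokine genes (vertical axes) against the mean log2 signal of 12 white adipocyte genes, and of Rbp4 also against the mean of 9 liver genes (horizontal axes), with 1 point per mouse labelled by its number, WT as blue circles and KCASP1Tg as orange squares. Adipoq (r = 0.88) and Nampt (r = 0.78) rise with the white adipocyte mean, whereas the WT points of Rbp4 lie above the KCASP1Tg points at like values of it.

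Between members, the r over the 10 mice was 0.81 for Adipoq with Lep, 0.78 for Adipoq with Nampt, 0.78 for Nampt with Apln and 0.73 for Adipoq with Apln. Sfrp5 had an r of -0.77 with Apln and -0.70 with Nampt, and Rbp4 had an r between -0.17 and 0.12 with Adipoq, Lep, Nampt, Apln and Sfrp5. These values describe 10 arrays that share a tissue and a scaling, and they were not tested.

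The tested genes most like each member over the 10 mice were found by Pearson r. Adipoq was most like Tgfbr3 (0.96), which encodes a co-receptor of TGF-β, then Tm2d2 (0.96) and Apmap (0.95), an adipocyte membrane protein. Lep was most like Vcan (0.93), a matrix proteoglycan, Kdsr (0.93) and A530020G20Rik (0.92), and Retn was most like Abcd2 (0.91), a peroxisomal transporter, Sowahc (0.91) and Txndc15 (0.90). Rbp4 was most like Hacl1 (0.97), a peroxisomal enzyme, Reep6 (0.96) and Pon1 (0.94), a paraoxonase made in liver.

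Nampt was most like Acss1 (0.97), a mitochondrial acetyl-CoA synthetase, with Timm10b (0.97) and Tbrg4 (0.96) next. Rarres2 was most like Gm5817 (0.93), Ppfia4 (0.92) and Tctn2 (0.91), Apln like Naa40 (0.91), Nabp1 (0.91) and Nfyc (0.91), and Sfrp5 like Atp6v0a1 (0.98), Igsf11 (0.98) and Ptprf (0.97). None of these 24 genes was called between the genotypes, and their adjusted p in limma was at least 0.334.

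Receptors of the adipokines were read next. Of 11 receptor genes, 10 were measured and 8 tested, 0 were called, and the median difference was -0.09 against 0.00 over all genes tested. The gene with the smallest p was Aplnr, at chr2:85136360-85139923, which encodes the receptor of apelin. The signals of its brighter probe set, 1438651_a_at, were 1347, 1467, 1059 and 1155 on WT 1 to WT 4, and 330.3 at the lowest, 415.1 at the median and 747.7 at the highest in KCASP1Tg mice. All 6 KCASP1Tg mice were below all 4 WT mice, and KCASP1Tg 6 was nearest to them. Of all probe sets tested, 0.949% were lower in KCASP1Tg mice without overlap.

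The Aplnr difference was -1.51 ± 0.22 with an interval of -2.0 to -1.01, a signal 2.84-fold lower in KCASP1Tg mice, and it stood just outside the limit of the test (limma adjusted p = 0.0545, two-sided exact Mann-Whitney p = 0.00952). It passed in 7 of 22 alternatives, among them those without KCASP1Tg 4 (limma adjusted p = 0.0458) and without KCASP1Tg 6 (limma adjusted p = 0.0135), and the adjusted p in limma ran from 0.00669 to 0.530 over all of them. In the same alternatives the difference stayed between -1.66 and -1.40. The second probe set of Aplnr, 1423037_at, was dimmer, with overlapping groups, and had a difference of -0.82 ± 0.25 (limma adjusted p = 0.405). The endothelial mean, over 12 genes, was 10.55 to 10.62 in WT mice and 10.30 to 10.74 in KCASP1Tg mice, and 0 of the 12 were called.

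The other 7 receptor genes had overlapping groups. Adipor1 and Adipor2 differed by 0.13 and -0.09 (limma adjusted p = 0.939 and 0.978), Cdh13 by -0.44 (0.819), Lepr by -0.09 (0.994), the chemerin receptor gene Cmklr1 by -0.24 (0.665), Ccrl2, whose product binds chemerin, by 0.30 (0.772), and Cap1, whose product binds resistin, by 0.09 (0.949), each with limma's adjusted p in parentheses. Lepr was highest in KCASP1Tg 4, with a signal of 1778, and Cdh13 was lowest there, at 496.2. This mouse had the highest neutrophil, macrophage and lymph node means. It also had the lowest endothelial, arterial smooth muscle, fibroblast, mesothelium and white adipocyte means. Its smooth muscle mean was 10.70 against 11.76 to 12.32 elsewhere, and its endothelial mean 10.30 against 10.53 to 10.74. The part of these cells was not tested. The RBP4 receptor genes Stra6 and Stra6l were under the limit for testing.

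**Figure D4:**
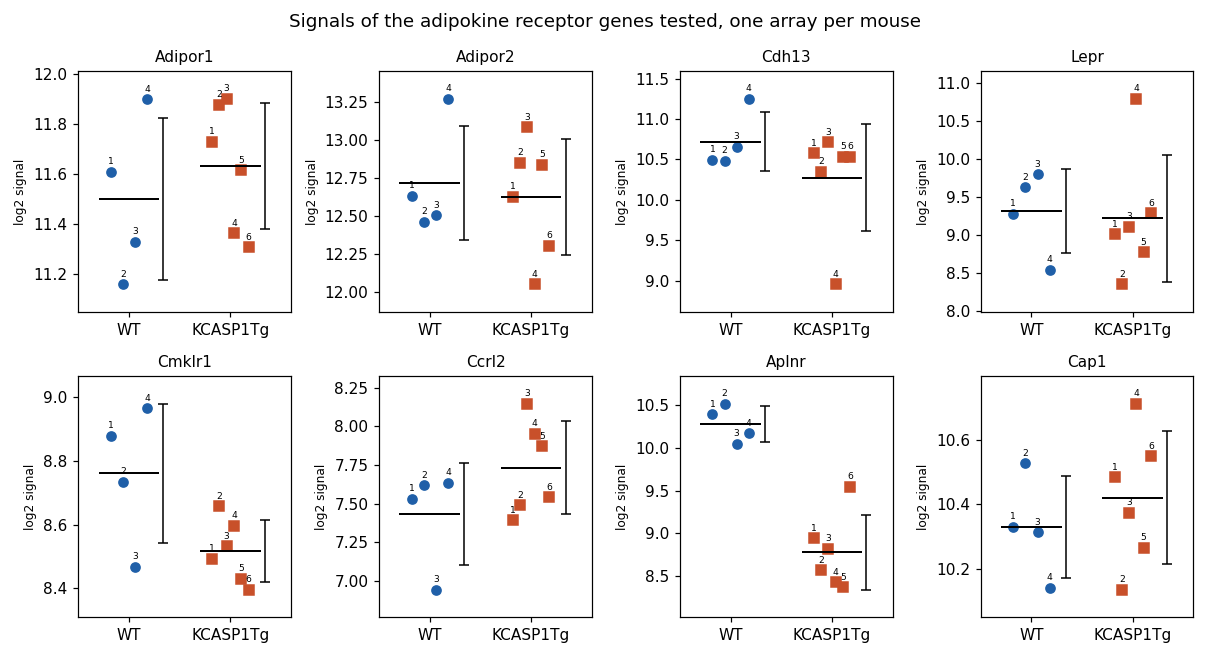
Log2 signal (vertical axis) of the 8 adipokine receptor genes tested, with 1 point per mouse labelled by its number, WT as blue circles and KCASP1Tg as orange squares. Horizontal lines are group means and the bars beside them show 1 SD to each side. Aplnr is the panel in which all KCASP1Tg points lie below all WT points, and the other 7 overlap.

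Genes downstream of leptin were not called either. All 7 listed genes were tested, 6 had a positive difference, and the median was 0.23. Socs3, the feedback inhibitor of the leptin receptor, had signals of 269.3, 248.9, 154.6 and 266.0 on WT 1 to WT 4, and 285.7 at the lowest, 562.3 at the median and 803.6 at the highest in KCASP1Tg mice. Every KCASP1Tg mouse was above every WT mouse, with a difference of 1.11 ± 0.29 (limma adjusted p = 0.303). The same held for the phosphatase gene Ptpn1 with 0.49 ± 0.18 and for Stat3 with 0.29 ± 0.12 (limma adjusted p = 0.531 and 0.551). Groups without overlap, higher in KCASP1Tg mice, were seen in 1.98% of all probe sets tested. The 3 genes answer to other cytokines as well, their highest values were in KCASP1Tg 4, the mouse with the highest neutrophil, macrophage and lymph node means, and the part of these cells in the differences was not tested.

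Of the 10 transcription factors of fat cells, 10 were tested and 0 called, with a median of 0.00. Pparg, the master regulator of fat cells, had signals of 2498 to 4732 in WT mice and 1739 to 4980 in KCASP1Tg mice, with a difference of -0.01 (limma adjusted p = 0.999). Of all probe sets tested, 1.98% were higher in KCASP1Tg mice without overlap. In this list Cebpd, a C/EBP factor that also answers to inflammatory signals, was the member whose groups did not overlap. Its signals were 900.5, 929.8, 1184 and 703.4 on WT 1 to WT 4, and 1238 at the lowest, 1766 at the median and 3166 at the highest in KCASP1Tg mice. Every KCASP1Tg mouse was above every WT mouse, with a difference of 1.08 ± 0.26 (limma adjusted p = 0.233). The highest value was again in KCASP1Tg 4, with the same list means beside it. Foxo1 and Klf15 differed by 0.22 and 0.11 (limma adjusted p = 0.819 and 0.953).

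Among 7 genes for the folding and release of adiponectin, all tested, 0 were called and the median was 0.01. Erp44, which retains adiponectin in the secretory path, differed by 0.21, P4hb by -0.06 and Plod1 by 0.09 (limma adjusted p = 0.814, 0.960 and 0.974). Of the C1q/TNF relatives of adiponectin, 11 of 12 were measured, 6 were tested, 0 were called and the median was 0.03. C1qtnf4 was higher on every KCASP1Tg array, with 72.5, 108.4, 72.5 and 89.3 on WT 1 to WT 4 and 122.7 to 202.7 in KCASP1Tg mice, a difference of 0.99 ± 0.17 (limma adjusted p = 0.109). C1qtnf1 differed by -0.25 with overlapping groups (limma adjusted p = 0.700).

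Partners of the remaining members were read from gene lists. For RBP4, 9 of 10 genes of retinol transport and retinoic acid synthesis were measured and 7 tested, 0 were called, and the median was -0.18, with Ttr as given above and Dhrs3 and Aldh1a1 at -0.18 and -0.23 (limma adjusted p = 0.907 and 0.944). For NAMPT, 10 of 11 genes of NAD salvage were measured and tested, 0 were called, no gene had groups apart, and the median was -0.09, with Nmrk1 at -0.19, Nmnat3 at -0.35 and Sirt1 at 0.14 (limma adjusted p = 0.764, 0.790 and 0.891). For apelin, 3 of 4 genes of its axis were measured and 2 tested, Aplnr and the angiotensin receptor gene Agtr1a, which differed by 0.30 (limma adjusted p = 0.956).

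For SFRP5, all 9 genes of the secreted frizzled-related proteins and of Wnt5a signalling were measured, 7 were tested and 0 called, with a median of -0.23. Its relatives Sfrp1, Sfrp2 and Sfrp4 differed by -0.36 ± 0.15, -1.14 ± 0.54 and -0.58 ± 0.31 (limma adjusted p = 0.568, 0.659 and 0.715), and KCASP1Tg 4 had the lowest signal of all 3. The mean over 8 fibroblast genes was 11.35 to 11.60 in WT mice and 10.50 to 12.01 in KCASP1Tg mice, with the lowest value in KCASP1Tg 4, and its part in these differences was not tested. For the complement pathway to which adipsin belongs, 8 of 11 genes were measured and 5 tested, and 0 were called. The median of the tested genes was 0.20, with the receptor gene C3ar1 at 0.48, Cfp at 0.47 and Masp1 at 0.16 (limma adjusted p = 0.627, 0.850 and 0.949). Of the genes under the limit for testing, Cfi and Hc were at -2.27 and -3.17 and C5ar1 at 0.49. Cfi and Hc were highest in WT 1 and WT 3, the mice with the highest liver means, whose part was not tested.

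Of 19 further secreted proteins known from fat, 17 were measured and 12 tested, 0 were called, and the median was -0.02. Lcn2, the iron-binding lipocalin of fat cells and neutrophils, had signals of 252.0, 119.5, 197.2 and 97.3 on WT 1 to WT 4, and 585.2 at the lowest, 801.5 at the median and 4275 at the highest in KCASP1Tg mice. All KCASP1Tg mice were above all WT mice, with a difference of 2.74 ± 0.52 (limma adjusted p = 0.119). WT 4 was under 100, so Lcn2 met the signal filter only with KCASP1Tg arrays counted. Of all probe sets tested, 1.98% were higher in KCASP1Tg mice without overlap. The highest Lcn2 value was in KCASP1Tg 4. Of the 8 neutrophil genes tested 2 were called, both higher, with S100a8 at 5.22 and S100a9 at 5.34 (limma adjusted p = 0.00633 for both). S100a9 was under 100 on WT 2 and WT 3, so it too met the filter only with KCASP1Tg arrays counted. KCASP1Tg 4 also had the highest lymph node and macrophage means, and the part of these cells in the Lcn2 difference was not tested. Grn and Nrg4 differed by 0.27 and -0.46 with overlapping groups (limma adjusted p = 0.678 and 0.869).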

How the data were processed

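Per the methods, the authors derived the deposited signal intensities from the scans with MAS5.0, which corrects for background and mismatch probes, and brought every array to a trimmed mean of 500. The intensities are linear. As in the methods, 1 was the lowest signal allowed before log2 was taken. A signal filter was used in place of detection calls, which were not used here. It took arrays of both genotypes together, so a probe set could meet it through 1 genotype alone. Gene names came from the platform annotation: 34945 probe sets had 1 symbol, of which 34741 were brought up to date through their gene identifier and 204 could not be. A gene was represented by its probe set with the highest mean signal. The 26242 probe sets that reached 100 on 4 or more arrays were fitted with limma 3.58.1 in R 4.3.3, with genotype as the term and Benjamini-Hochberg adjustment. The exact Mann-Whitney test went through every split of the ranks into the 2 group sizes. Permutation tests used 100000 random shuffles drawn with numpy 2.4.6. Ranks and correlations came from scipy 1.17.1. Tests were two-sided, and the p-values measure the spread between mice, whose number limits the precision. The steps were tested on simulated data.

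The genes named are the members, the 3 tested genes most like each, up to 3 genes with the smallest p of each pathway list and, from the cell lists, up to 2 on which a result turns. Pparg, the remaining receptor genes, Cfi, Hc and C5ar1 were named beyond this rule, after their values were seen. The members and lists were chosen with earlier results of these data known. Alternatives changed the floor (16), added a pseudocount of 50, changed the filter (none or 200), normalized by quantiles or medians, and used array weights, an intensity trend, list means as covariates, the replicate block, fewer arrays, averaged probe sets or the exact test. A batch is not given in the sources used here. Of 14 planned correlations 13 were computed, since Cfd was not analysed.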

Additional observations from a re-analysis of the deposited data

Results flagged for a closer look

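Each of the 14 adipokine probe sets was searched, in each genotype, for a mouse far from the others by Dixon's gap ratio. This is the gap to the nearest mouse over the range of the group, both taken on log2 signals. Signals printed beside the ratios are linear, and the ratios cannot be read from them directly. In 3 of 28 groups the ratio was beyond the 95% limit, which chance passes in about 1 of 20 groups. Sfrp5 was low in WT 4 on both of its probe sets, with a gap ratio of 0.907 for 1436075_at (370.2 against 1280 to 1453 in the other WT mice) and of 0.883 for 1423023_at (230.5 against 616.7 to 702.8). WT 4 had the highest heart muscle mean of all mice (13.12), while KCASP1Tg 1 and KCASP1Tg 2, with heart muscle means of 12.19 and 11.39, had Sfrp5 signals of 804.8 and 742.1 on 1436075_at. WT 4 also had the highest white adipocyte mean among WT mice (13.51) and the highest brown adipocyte mean of all mice (12.94). The part of these tissues in the low Sfrp5 signal was not tested. Itln1 was high in KCASP1Tg 3, with a gap ratio of 0.749, and its signal of 19.5 was far under the limit of 100 for testing.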

How the results depend on the processing

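No adipokine probe set was called in any alternative. Of 182 results over the 8 genes tested and their alternatives, 180 kept the direction and the side of the threshold. Itln1, dim and not tested, was at -0.21 and moved to 0.047 with the floor of 16 and 0.038 with the pseudocount of 50. Rarres2 turned to 0.019 without KCASP1Tg 4 (-0.12 to 0.019 with each mouse left out), and Sfrp5 turned to 0.21 when WT 1 and WT 3 were left out, an alternative added after the data were seen. The number of all probe sets called, 18, became 267 with array weights, 35 with the white adipocyte mean as a covariate, 5 without WT 4 and KCASP1Tg 3, 0 without WT 1 and WT 3, 0 with the exact Mann-Whitney test and 2 (without WT 3) to 68 (without KCASP1Tg 4) with each mouse left out. The replicate block called 0. Same-numbered mice are different animals. Their deviations from the group means had correlations of -0.48 to 0.16, where those of differently numbered mice ran from -0.59 to 0.61. These values cannot tell whether same-numbered mice were paired by litter or handling. The cause of these shifts was not tested. With 4 and 6 mice, the intervals of Lep, Sfrp5 and Nampt include changes of over 2-fold, so a p that missed the threshold does not show equal levels. Signals near the limit of 100 are the least certain, which touches Lep, Apln and the dim probe sets.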
